A study of Rattus norvegicus with 8 samples.

Results

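The data described here are the colon signals of the Toll-like receptors and of 2 proteins that work with them, in rats given cocoa, cocoa fiber or inulin. The 10 genes listed were Tlr1, Tlr2, Tlr3, Tlr4, Tlr5, Tlr6, Tlr7, Tlr9, Myd88 and Cd14, chosen by name and not by their values. Through the accession of each probe, 9 of them were found on the array, with 10 probes among 30367. Tlr3 had 2 probes, and no probe was matched to Tlr1. Of the 9 genes, 8 were bright enough to be tested among 19899 genes, and Tlr9 was not.

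Female Wistar rats, 6 weeks old and 16 in number, had received 1 of 4 diets for 3 weeks before RNA was taken from their mid-colon. There were 4 rats per diet. REF rats ate the standard diet, and C10 rats a diet with 10 % cocoa, which brings both polyphenols and fiber. CF rats ate the cocoa fiber with very little polyphenol, and I rats ate inulin, a chicory fiber, matched to the soluble fiber of C10, so the comparisons ask whether cocoa acts through its fiber. Each of 8 arrays carried 2 rats of different diets, 1 in the dye Cy5 and 1 in Cy3, with 2 rats of each diet in each dye. C10 and I rats never shared an array, and neither did REF and CF rats. Spots clearly brighter than background made up 68.6 to 83.9 % in the 16 rats, and 0 spots were saturated. All 8 colonocyte markers, such as Epcam and Slc26a3, were above background in every rat. C10 rat 1 stood apart in smooth muscle markers (score -3.23) and C10 rat 4 in posterior Hox genes (2.33), and without both rats 0 members were called in any comparison. The rats are separate animals, and p-values measure the spread between them. Whole colon wall was used, so fewer cells of a type and less RNA per cell cannot be told apart.

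Toll-like receptors recognise molecules that microbes share and set off inflammatory signalling. On the cell surface, TLR2 pairs with TLR1 or TLR6 to bind bacterial lipopeptides. TLR4 binds lipopolysaccharide, which CD14 hands over to it, and TLR5 binds flagellin. Inside endosomes, TLR3 senses double-stranded RNA, TLR7 single-stranded RNA, and TLR9 bacterial DNA with unmethylated CpG. Apart from TLR3, these receptors signal through the adaptor MYD88 towards the transcription factor NF-kB. In the colon they are found in epithelial cells and in the immune cells of the wall, which live beside a dense flora.

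Most members were measurable in the colon. A probe was taken as well above background in a rat when a share of at least 0.5 of its spots carried the scanner software's flag for this. By that measure Tlr2, Tlr3, Tlr4, Tlr5, Tlr6, Myd88 and Cd14 were above background in 16 of 16 rats. The signal of Cd14 was 68.3 to 232 times its local background, that of Myd88 104 to 249 times, and that of Tlr4 16.6 to 42.3 times. Tlr2 (7.26 to 17.5 times), Tlr6 (15.6 to 34.2 times) and the brighter Tlr3 probe (15 to 49.7 times) were also clear of background everywhere. Such ratios describe each probe alone, since probes differ in how well they bind. Tlr5 was dim, at 1.46 to 4.06 times background, and a limit of 2.6 SD above the local background kept it in 13 of 16 rats. Tlr7 stood at the edge of detection, above background in 9 of 16 rats (2 REF, 1 C10, 4 CF and 2 I rats, and by the limit of 2.6 SD 2 REF, 1 C10, 2 CF and 4 I rats) at 1.23 to 2.4 times background. Tlr9 was above background in 0 of 16 rats by the flag and in 1 by the limit of 2.6 SD, with signals 0.92 to 1.72 times the local background, so that no fold change is given for it.

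None of the 8 members tested differed between any 2 diets after adjustment. Over all 6 pairs of diets, 0 members reached an adjusted p below 0.05 in limma's moderated test of all 19899 genes. In the same test 0.945 % of all genes passed for C10 against REF, 0.427 % for C10 against CF and 0.563 % for C10 against I, and 0 % for the other comparisons. With a limit of 2-fold added, these shares were 0.196 %, 0.101 % and 0.166 %. At an unadjusted p below 0.05, 0 members passed for C10, CF or I against REF, where 17.1 %, 6.34 % and 5.71 % of all genes did. At that level 1 member passed for C10 against CF (13.4 % of all genes), 2 for C10 against I (12.2 %) and 1 for CF against I (2.82 %), namely Tlr7, Tlr7 with Cd14, and Cd14. In no comparison did the 4 rats of one diet lie outside the range of the 4 of the other for any of the 8 tested members. Tlr9, below background, read 5.91 to 5.98 in C10 and 6.01 to 6.07 in I. Over all genes this share was 4.57 % for C10, 1.89 % for CF and 2.07 % for I against REF. It was 3.54 % and 5.8 % for C10 against CF and I, and 1 % for CF against I.

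The precision of these differences was enough to bound them. For C10 against REF, the 95 % confidence intervals of the 8 members lay between -0.80 and 0.62 on the log2 scale, that is, within a change of 1.74-fold. For CF and for I against REF they lay within 1.49-fold and 1.42-fold. The widest bound in any comparison was 1.8-fold, for Tlr3 in C10 against I. The median log2 difference of the 8 members from REF was 0.07 in C10, 0.03 in CF and -0.01 in I, and that of all genes was 0.01 each time. The offset used in background correction narrows the differences of dim probes, so the bounds for Tlr5 and Tlr7 hold on that scale only.

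**Figure D1:**
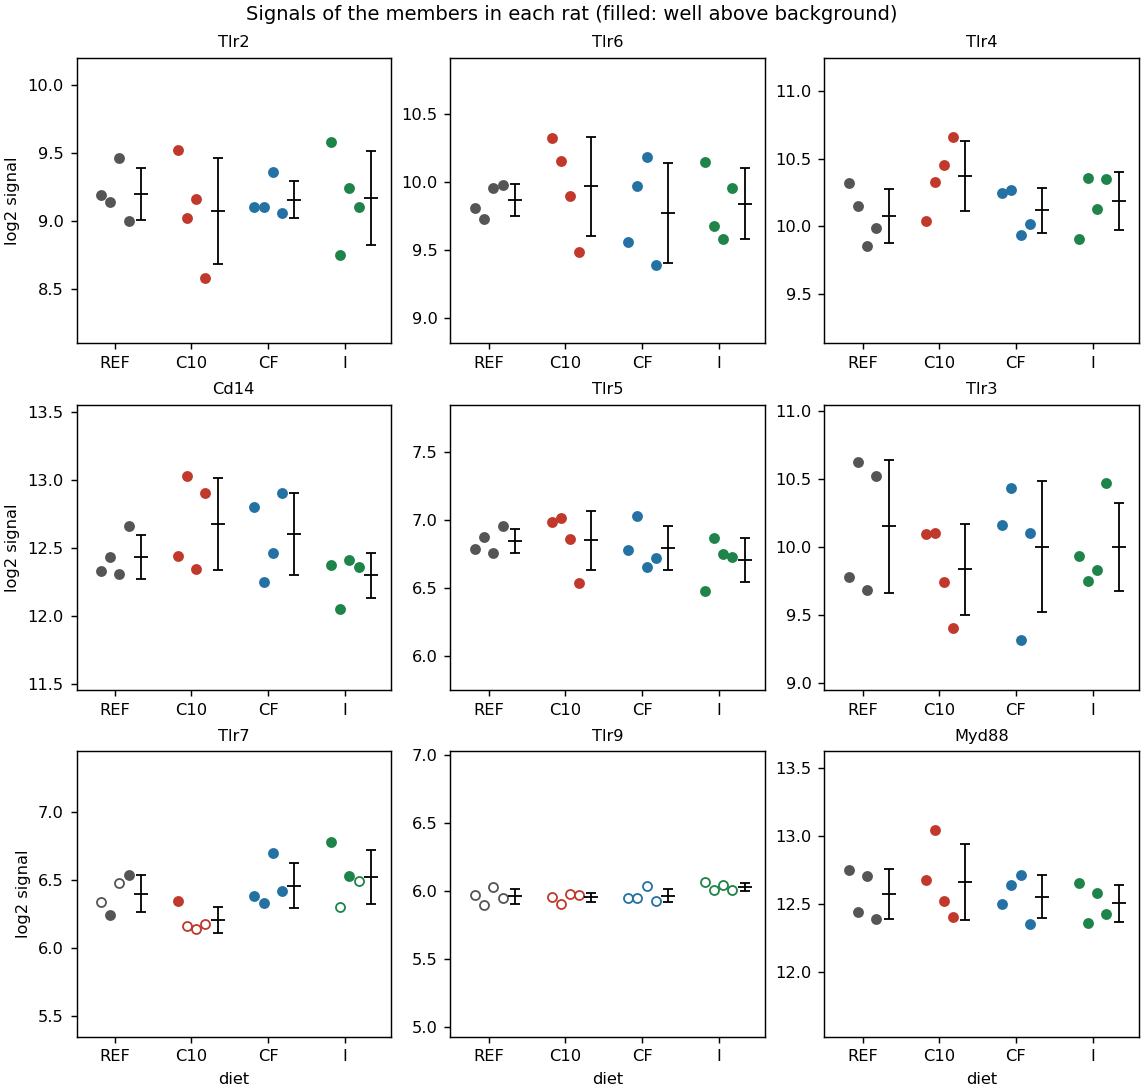
Normalized log2 signal of 9 members in each rat, by diet. Each point is 1 rat, filled where the probe was well above background and open where it was not, and the bars give the mean and SD of 4 rats. No 2 diets are fully apart for the 8 tested members, Tlr9 has open points only, and the axes all span the same log2 range.

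**Figure D2:**
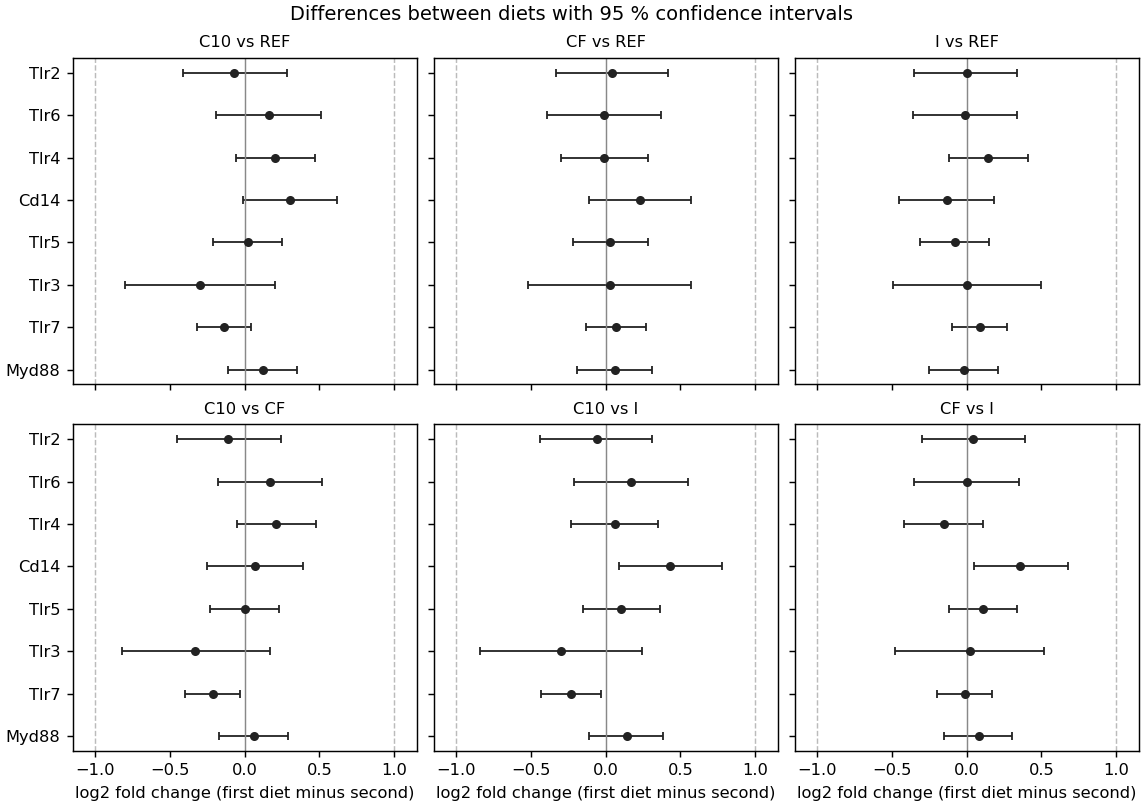
Log2 difference of each tested member between 2 diets (first diet minus second), from limma's fit, with 95 % confidence intervals. Dashed lines mark a 2-fold change, which no interval reaches. The intervals of Tlr7 in C10 against CF and against I, and of Cd14 in C10 and in CF against I, leave out 0 before adjustment for the number of genes.

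Among the receptors of the cell surface and their helper, Cd14 had its highest signals in C10 and CF rats, without passing the test. Its log2 signals were 12.33, 12.43, 12.31 and 12.66 in REF rats 1 to 4, and 12.44, 13.03, 12.34 and 12.90 in C10 rats. They were 12.80, 12.25, 12.46 and 12.90 in CF rats, and 12.37, 12.05, 12.41 and 12.36 in I rats. So C10 rats 2 and 4 and CF rats 1 and 4 stood above all REF and I rats, whereas the remaining C10 and CF rats lay among them. The fitted difference of C10 from REF was 0.30 ± 0.15 (SE, n = 4), with limma's adjusted p at 0.315. C10 exceeded I by 0.43 ± 0.16 (SE), or 1.35-fold, with limma's adjusted p at 0.295, and CF exceeded I by 0.36 ± 0.15, with limma's adjusted p at 1. The exact two-sided permutation test of 4 against 4 rats gave p = 0.143 for C10 against I and p = 0.2 for CF against I, and the smallest p that it allows is 0.0286. The diets therefore ran in the order C10 (12.68), CF (12.60), REF (12.43) and I (12.30), and no neighbours in this order differed beyond their spread.

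Tlr4, whose product takes lipopolysaccharide from CD14, had its 2 highest signals in C10 rats 3 and 4. C10 rats 1 to 4 gave 10.04, 10.33, 10.45 and 10.66, and REF rats 10.32, 10.15, 9.86 and 9.99. CF rats gave 10.25, 10.27, 9.94 and 10.02, and I rats 9.91, 10.36, 10.13 and 10.35. C10 rat 4 was the highest of all 16 and REF rat 3 the lowest, but C10 rat 1 lay below 2 REF rats. The difference of C10 from REF was 0.20 ± 0.12 (SE, limma's adjusted p = 0.438), and that of I from REF was 0.14 ± 0.12 (limma's adjusted p = 0.945).

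Tlr2 and its partner Tlr6 had similar means in all diets and wide spreads. Tlr2 was 9.19, 9.14 and 9.46 in REF rats 1 to 3 and 9.0 in REF rat 4, and 9.52, 9.02, 9.16 and 8.58 in C10 rats. It was 9.10, 9.10, 9.36 and 9.06 in CF rats, and 9.58, 8.75, 9.24 and 9.10 in I rats. In each diet 1 rat stood highest (REF rat 3, C10 rat 1, CF rat 3 and I rat 1), and C10 rat 4 and I rat 2 were the lowest. The difference of C10 from REF was -0.07 ± 0.16 (SE), that of CF 0.04 ± 0.18 and that of I 0.00 ± 0.16, with limma's adjusted p at 0.879 or above. Tlr6 ranged from 9.73 to 9.98 in REF, 9.49 to 10.33 in C10, 9.39 to 10.19 in CF and 9.58 to 10.15 in I, so that the REF rats were the closest to each other. Its largest difference from REF was 0.16 ± 0.16 in C10 (limma's adjusted p = 0.662). Tlr5, the flagellin receptor, ranged from 6.76 to 6.96 in REF, 6.54 to 7.02 in C10, 6.66 to 7.03 in CF and 6.48 to 6.87 in I, and its largest difference from REF was -0.08 ± 0.11 in I (limma's adjusted p = 0.959).

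Of the 2 endosomal receptors tested, Tlr3 varied more between rats than Tlr7 on the normalized scale. The offset used in background correction narrows the spread of dim probes such as that of Tlr7. The brighter Tlr3 probe gave 9.78, 10.62, 9.68 and 10.52 in REF rats 1 to 4, and 10.09, 10.10, 9.74 and 9.40 in C10 rats. It gave 10.16, 10.43, 9.31 and 10.10 in CF rats, and 9.93, 9.75, 9.83 and 10.47 in I rats. The highest signals came from REF, I and CF rats, and no C10 rat exceeded 10.10. The lowest came from a CF rat (9.31) and a C10 rat (9.40). Its other probe ranged from 9.05 to 10.25 and followed the first closely (r = 0.98 over 16 rats), so that the spread was seen with both probes. The difference of C10 from REF was -0.30 ± 0.23 (SE, limma's adjusted p = 0.554), and those of CF and I were 0.03 ± 0.25 and 0.00 ± 0.23.

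Tlr7 had its lowest signals in C10. C10 rats 1 to 4 gave 6.35, 6.16, 6.14 and 6.18, of which rats 2 to 4 were not well above background, and REF rats gave 6.34, 6.24, 6.48 and 6.54. CF rats gave 6.38, 6.33, 6.70 and 6.42, and I rats 6.78, 6.30, 6.53 and 6.49. C10 rats 2 to 4 thus lay below all other rats, and C10 rat 1 among them. Since only C10 rat 1 of these was well above background, Tlr7 met the filter on dim probes mainly through the other diets. The difference of C10 was -0.14 ± 0.09 (SE) from REF, -0.21 ± 0.09 from CF and -0.23 ± 0.09 from I, with limma's adjusted p at 0.431, 0.29 and 0.336. With no offset in the background correction, the differences from REF, CF and I were -0.43, -0.69 and -0.63, and with the software's processed signals they were -0.42, -1.02 and -0.70, with no adjusted p of limma below 0.146. Its partner in signalling, Myd88, ranged from 12.39 to 12.75 in REF, 12.40 to 13.04 in C10, 12.35 to 12.71 in CF and 12.36 to 12.65 in I. The difference of Myd88 from REF was 0.12 ± 0.11 in C10, 0.06 ± 0.12 in CF and -0.02 ± 0.11 in I (SE), with limma's adjusted p at 0.626 or above.

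Some members differed more between rats of the same diet than most genes did. With diet and dye removed, the SD between rats was 0.42 on the log2 scale for Tlr3, higher than for 94.1 % of the genes tested. It was 0.30 for Tlr2 (86.4 %) and 0.29 for Tlr6 (85.5 %), against a median of 0.16 over all genes. Cd14 (0.23), Tlr4 (0.21) and Myd88 (0.19) were also above that median, Tlr5 (0.17) was close to it, and Tlr7 (0.16) lay above 47.5 % of the genes. The offset narrows the spread of dim probes, so the values of Tlr5 and Tlr7 hold on that scale only. Between the highest and the lowest rat, with the dye means removed, the signal of Tlr3 differed 2.37-fold, that of Tlr2 2-fold and that of Cd14 1.98-fold.

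Tlr2, Tlr4 and Tlr3 carry the patterns between rats that follow, so their RefSeq promoters are shown (build GRCr8, 250 bases before to 50 after the start, on the strand of the gene). Tlr2 lies at chr2:171504508-171504807 (minus strand), Tlr3 at chr16:53554666-53554965 (plus strand) and Tlr4 at chr5:85160997-85161296 (plus strand). Capitals mark matches to any of 5 motifs, searched on both strands without overlap between motifs. These were the NF-kB motif kB and the interferon response motif ISRE, which have free positions, and 3 fixed ones. The ETS motif, bound by factors of that family, was searched as AGGAAGT. The GC box, bound by SP1 and related factors, was searched as GGGCGG. The TATA motif of the basal promoter was searched as TATAAA.
Tlr2: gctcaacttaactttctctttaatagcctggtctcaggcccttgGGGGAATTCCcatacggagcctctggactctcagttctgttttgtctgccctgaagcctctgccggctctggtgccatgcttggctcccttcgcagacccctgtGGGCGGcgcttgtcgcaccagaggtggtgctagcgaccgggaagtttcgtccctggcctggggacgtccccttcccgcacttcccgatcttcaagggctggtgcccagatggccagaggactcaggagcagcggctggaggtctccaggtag
Tlr3: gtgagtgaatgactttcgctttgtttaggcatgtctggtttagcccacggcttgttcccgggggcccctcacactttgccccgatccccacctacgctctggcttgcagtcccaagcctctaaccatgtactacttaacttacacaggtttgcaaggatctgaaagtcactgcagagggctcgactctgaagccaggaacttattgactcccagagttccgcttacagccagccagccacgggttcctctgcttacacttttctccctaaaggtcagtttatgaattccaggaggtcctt
Tlr4: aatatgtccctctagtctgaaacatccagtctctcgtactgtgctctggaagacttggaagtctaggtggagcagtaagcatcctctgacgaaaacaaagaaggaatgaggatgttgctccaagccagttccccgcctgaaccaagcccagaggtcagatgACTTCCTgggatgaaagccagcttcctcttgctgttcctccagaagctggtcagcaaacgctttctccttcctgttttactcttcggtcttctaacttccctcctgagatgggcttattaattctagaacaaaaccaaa
The Tlr2 window held 1 kB match at bases -206 to -197 and 1 GC box match at -102 to -97, the Tlr4 window 1 ETS match at -89 to -83, and the Tlr3 window 0. Of 33469 rat promoters of this length, 5.37 % held the kB letters, 33.1 % the GC box and 8.41 % the ETS letters. The Myd88 window, not printed, held an ISRE match at -16 to -7, as did 3.92 % of promoters. These matches describe letters only.

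Tlr2 and Tlr4 ran in opposite directions across rats. With the dye means removed, their signals correlated at r = -0.77 over 16 rats (permutation p = 0.00057, adjusted p = 0.0144 over 28 pairs of members), and by rank at rho = -0.58 (permutation p = 0.0201, adjusted p = 0.2). The correlation was -0.90 among the 8 rats of arrays 1 to 4 and -0.75 among those of arrays 5 to 8, and -0.58 without the 2 rats farthest from the median. Arrays 1 to 4 held all C10 rats and no I rat, and arrays 5 to 8 all I rats and no C10 rat. The 2 sets of arrays therefore differ in diet as well. C10 rat 4, highest in Tlr4, was the lowest in Tlr2, and I rat 1, highest in Tlr2, stood above only REF rat 3 and CF rat 3 in Tlr4. Tlr4 also ran against Tlr7, at r = -0.74 (permutation p = 0.00103, adjusted p = 0.0144) and rho = -0.70 (permutation p = 0.00391, adjusted p = 0.109), with r = -0.58 and -0.59 within the 2 sets of arrays and -0.75 without the 2 farthest rats. Tlr2 with Tlr6, its receptor partner, had r = 0.65 (permutation p = 0.00642, adjusted p = 0.0599), and Tlr3 with Tlr5 r = 0.62 (permutation p = 0.0105, adjusted p = 0.0735). By rank, 0 of the 28 pairs passed after adjustment. The 2 rats on an array share its hybridisation, so the 16 rats are not wholly independent.

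These patterns were set beside the markers of cell types in the colon wall. Each list was scored as the mean standardised signal of its tested genes with the dye means removed, and 64 relations (8 members, 8 lists) were tested, of which 6 passed at an adjusted p below 0.05. Tlr2 rose with the B cell list (8 of 10 genes tested, among them Cd79b and Cr2), at r = 0.80 (permutation p = 0.00004, adjusted p = 0.00256) and rho = 0.83 (permutation p = 0.00011, adjusted p = 0.00704). The relation was 0.73 and 0.86 within the 2 sets of arrays, which differ in diet as well, and 0.77 without CF rat 3 and C10 rat 1, the 2 farthest. The 4 rats that stood highest in Tlr2, 1 from each diet, had the 4 highest B cell scores (0.86 to 1.44). They also had the 4 highest T cell scores (0.98 to 1.78), and neither the T cell nor the mast cell list was among those tested against the members, so the relation is not shown to be particular to B cells. The scores left their widest gap, 0.55, between 8 lower and 8 higher rats. Within the 8 higher rats r was 0.80, and within the 8 lower ones 0.07. With the software's processed signals or no normalization between arrays, the relation of Tlr2 with this list no longer passed.

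Tlr3 rose instead with epithelial lists. With the enteroendocrine list (5 of 6 genes tested, such as Chga and Pyy) it had r = 0.76 (permutation p = 0.00069, adjusted p = 0.0221) and rho = 0.70 (permutation p = 0.00325, adjusted p = 0.052). Within the 2 sets of arrays r was 0.82 and 0.76, and without REF rat 4 and CF rat 3 it was 0.67. With the colonocyte list (Epcam, Krt20, Slc26a3 and 5 others) it had r = 0.62 (permutation p = 0.00991, adjusted p = 0.0705) and rho = 0.75 (permutation p = 0.0013, adjusted p = 0.0416). Tlr5 had r = 0.68 with the colonocyte list (permutation p = 0.00293, adjusted p = 0.0426) and rho = 0.53 (permutation p = 0.0371, adjusted p = 0.183), with r = 0.56 and 0.70 within the 2 sets of arrays and 0.62 without C10 rat 2 and CF rat 3. Tlr3 also ran against the posterior Hox list (4 of 6 genes tested), genes of which the more distal colon makes more, at r = -0.66 (permutation p = 0.00385, adjusted p = 0.0426) and rho = -0.52 (permutation p = 0.0429, adjusted p = 0.184). Within the 2 sets of arrays this was -0.82 and -0.61, but without C10 rat 4 and REF rat 4 it was -0.44, so it leans on those rats.

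Tlr3 ran against the neutrophil list as well (r = -0.68, permutation p = 0.00399, adjusted p = 0.0426, rho = -0.66, permutation p = 0.00616, adjusted p = 0.0657), with r = -0.53 and -0.81 within the sets of arrays and -0.72 without I rat 1 and REF rat 4. Of 5 other settings, the relation of Tlr3 with this list passed only with diet removed from both measures, where the permutation p-values are too small. Only 3 of the 6 neutrophil genes were tested, 2 of them above background in all 16 rats, and the defining markers Cxcr2 and Ngp were too dim. Tlr2 rose with the same list by rank (rho = 0.72, permutation p = 0.00203, adjusted p = 0.0433, r = 0.64, permutation p = 0.00709, adjusted p = 0.0648). Tlr6 ran against the smooth muscle list (7 genes, such as Acta2 and Myh11) at r = -0.70 (permutation p = 0.00153, adjusted p = 0.0326) and rho = -0.57 (permutation p = 0.0223, adjusted p = 0.13). There C10 rat 1 stood far apart, with a score of -3.23 against -0.53 or more in all other rats, and it was the highest in Tlr6. Without C10 rat 1 and REF rat 2, r was -0.56, so that this relation leans on these rats. Without normalization between arrays it was -0.16. Myd88 and Cd14 passed with 0 lists, by r or by rank. Under other settings Cd14 did pass, with the colonocyte list (r = 0.71 with processed signals and without normalization between arrays) and with the posterior Hox list (r = 0.77 without the 2 farthest rats).

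**Figure D3:**
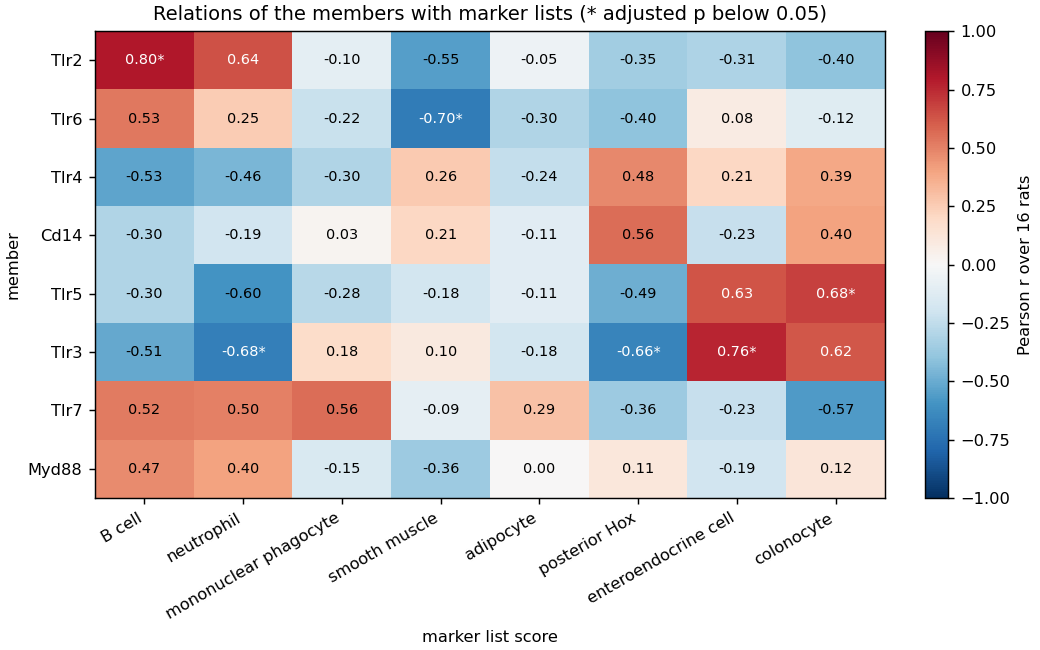
Pearson r over 16 rats between the log2 signal of each tested member (rows) and the score of each marker list (columns), red for positive and blue for negative. Asterisks mark the 6 relations with an adjusted p below 0.05, 3 of them in the row of Tlr3.

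**Figure D4:**
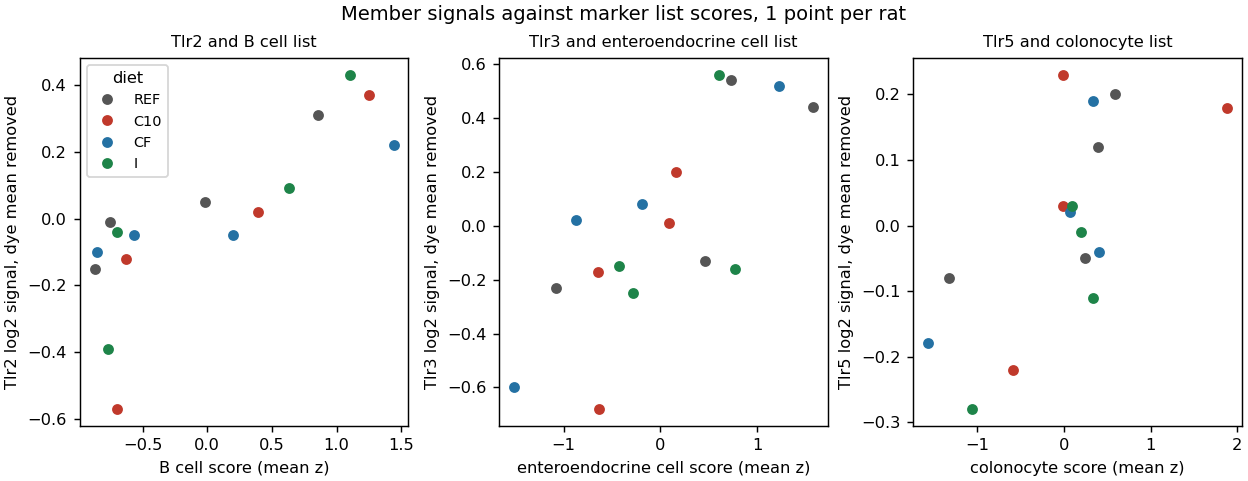
Log2 signal of Tlr2, Tlr3 and Tlr5 with the dye mean removed, against the score (mean standardised signal, no unit) of 1 marker list each. Each point is 1 rat, coloured by diet. Rats of all 4 diets lie along each relation (r = 0.80, 0.76 and 0.68).

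The genes whose signals were most like those of each member over the 16 rats were taken by Pearson r. For Tlr2 they were RT1-M3-1, Csk and Rac2 (r = 0.93, 0.91 and 0.91), a class I histocompatibility gene, a kinase that restrains Src and a small GTPase of blood cells. For Tlr7 they were Dnase1l3 (r = 0.94), Mcpt3 (0.92), a mast cell protease, and Cst7 (0.92). Tlr3 was most like Akr1b1, Prlr and Klrb1a (r = 0.93, 0.92 and 0.90), Tlr4 most like Lce1m, Zfp458 and Tfdp2 (0.88, 0.86 and 0.83), and Tlr5 like Plcxd2 and Slc27a4 (0.88 and 0.83). Tlr6 was most like Casp8, Cerk and Cnp (r = 0.86, 0.86 and 0.84). Myd88 was most like Kif3b, Armc7 and Brpf1 (0.90, 0.84 and 0.82), and Cd14 most like Ly6al, Gabarapl1 and Fam20a (0.90, 0.84 and 0.83). These are the highest of 11921 genes with a symbol and carry no test.

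The remaining genes of the pathway were given by lists of 50 genes, of which 42 had a probe and 40 were tested. Against REF, 0 of 40 passed after adjustment for C10, CF or I. At an unadjusted p below 0.05, 3 were higher and 5 lower in C10, 1 was higher and 0 lower in CF, and 2 were higher and 1 lower in I, where 17.1 %, 6.34 % and 5.71 % of all genes passed at that level. The median difference of the 40 genes was -0.04 in C10, 0.08 in CF and 0.04 in I, with 0.01 for all genes. In C10 the smallest unadjusted p values belonged to Tlr11 (-0.31 ± 0.08, SE), Sigirr, an inhibitor of this signalling (0.23 ± 0.07), and Tlr12 (-0.39 ± 0.14), with limma's adjusted p at 0.0722, 0.122 and 0.191. In CF they belonged to Nfkbia, the inhibitor that holds NF-kB in the cytoplasm (0.40 ± 0.18), Hsp90b1 (0.26 ± 0.14) and Tab1 (-0.11 ± 0.06), with limma's adjusted p from 0.78 to 0.832. In I they belonged to Irak2, a kinase downstream of MYD88 (0.19 ± 0.07), Hsp90b1, a chaperone of the receptors (0.34 ± 0.13), and Ly96, the partner of TLR4 (-0.24 ± 0.11), with limma's adjusted p from 0.837 to 0.867. Of 8 inflammatory target genes tested, 7 were lower in C10 than in REF, with a median of -0.15 and 0 passing, and Il6 was above background in 0 of 16 rats and Il12b in 3.

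Tlr11 was the only pathway gene to pass in any comparison, with its lowest signals in C10. It met the filter on dim probes through REF, CF and I rats only, and with probes required above background in all 16 rats it was not tested and 0 pathway genes passed. In rodents TLR11 and TLR12 sense profilin of protozoan parasites. The Tlr11 signal averaged 6.19 ± 0.09 (SD, n = 4) in C10, where it was well above background in 0 of 4 rats, against 6.53 ± 0.13 in REF, 6.58 ± 0.14 in CF and 6.67 ± 0.18 in I. The highest C10 rat (6.30) lay below the lowest rat of every other diet (6.39 in REF, 6.44 in CF and 6.40 in I). The C10 rats give a bound only for the level of Tlr11. In limma's fit Tlr11 was 1.31-fold higher in CF than in C10 (limma's adjusted p = 0.0455). The confidence interval of C10 minus CF, before adjustment, was -0.55 to -0.22 on the log2 scale. In I, Tlr11 was 1.35-fold higher than in C10 (limma's adjusted p = 0.036, interval -0.61 to -0.26). In REF it was 1.24-fold higher, without passing (limma's adjusted p = 0.0722, interval -0.47 to -0.14). Ratios of plain means over C10 were 1.32-fold for CF, 1.4-fold for I and 1.27-fold for REF. For C10 they used the higher of 2 values in each rat. These were the probe's own signal and the rat's lowest signal well above background. Such ratios leave out the spread between rats and are not lower limits. The calls were close to the limit. Leaving out 1 rat at a time, the call against CF was lost without any of 12 of the 16 rats (C10 2, 3 and 4, all CF rats, I 1, 3 and 4, and REF 2 and 4, limma's adjusted p 0.0522 to 0.189), and that against I without any of 8 (C10 2, 3 and 4, CF 1 and 4, and I 1, 3 and 4, limma's adjusted p 0.0593 to 0.129). The fitted difference kept its direction throughout, from -0.42 to -0.36 and from -0.50 to -0.41.

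The other rodent receptors outside the member list were not called. Tlr12 averaged 6.58 ± 0.22 (SD, n = 4) in C10, 7.04 ± 0.17 in REF, 7.07 ± 0.35 in CF and 7.28 ± 0.26 in I, a difference of -0.61 ± 0.16 (SE) between C10 and I (limma's adjusted p = 0.117). The C10 rats overlapped with REF and CF and lay below all I rats, with 6.87 in the highest C10 rat. Tlr10 averaged 6.33 ± 0.15 in C10 and 6.51 ± 0.06 in REF (limma's adjusted p = 0.269), and Tlr8 lay between 6.24 and 6.31 in all diets.

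Markers of mononuclear phagocytes, which carry many of these receptors, were lower in C10 beside Tlr7, Tlr11 and Tlr12. Of 10 genes, 10 were lower in C10 than in REF (median -0.45). At an unadjusted p below 0.05 in limma's test 6 passed, where 17.1 % of all genes did, and 0 passed after adjustment. The summed signal of the list was 17500 to 27000 in C10 rats, 24900 to 36600 in REF, 28900 to 41000 in CF and 32000 to 40000 in I. Aif1, a calcium-binding protein of macrophages, was the only one to pass, at 11.10 ± 0.24 (SD, n = 4) in C10, 12.03 ± 0.30 in CF and 12.05 ± 0.34 in I. It was 1.8-fold lower in C10 than in CF (limma's adjusted p = 0.0315) and 1.78-fold lower than in I (limma's adjusted p = 0.0459). The call against CF was lost without C10 rats 3 or 4 or CF rats 1, 2 or 3 (limma's adjusted p 0.0805 to 0.137), and that against I without any of 10 rats (C10 2, 3 and 4, CF 1, 2 and 4, and all I rats, limma's adjusted p 0.0636 to 0.175). Of 31 other settings, with those that left out a rat included, the Aif1 call was lost in 11 against CF and in 19 against I. Mast cell markers were lower in C10 as well, with 7 of 8 passing against REF (median -1.08), where 0.945 % of all genes passed. Their summed signals were 1350 to 2590 in C10 against 5550 to 7950 in REF. Cd14, itself a monocyte gene, had r = 0.03 with the mononuclear phagocyte list over all rats, but r = 0.65 once diet was removed from both measures (permutation p = 0.00556, adjusted p = 0.0247). That permutation shuffled residuals as if they were independent, although diet and dye had been fitted, so its p-values are too small. Tlr7 had r = 0.56 with this list (permutation p = 0.023, adjusted p = 0.123) and rho = 0.65 (permutation p = 0.00751, adjusted p = 0.0687). With diet removed from both measures, r of Tlr7 was only 0.10. The part of these cell types in the signals of Tlr7, Tlr11 and Tlr12 was not tested.

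**Figure D5:**
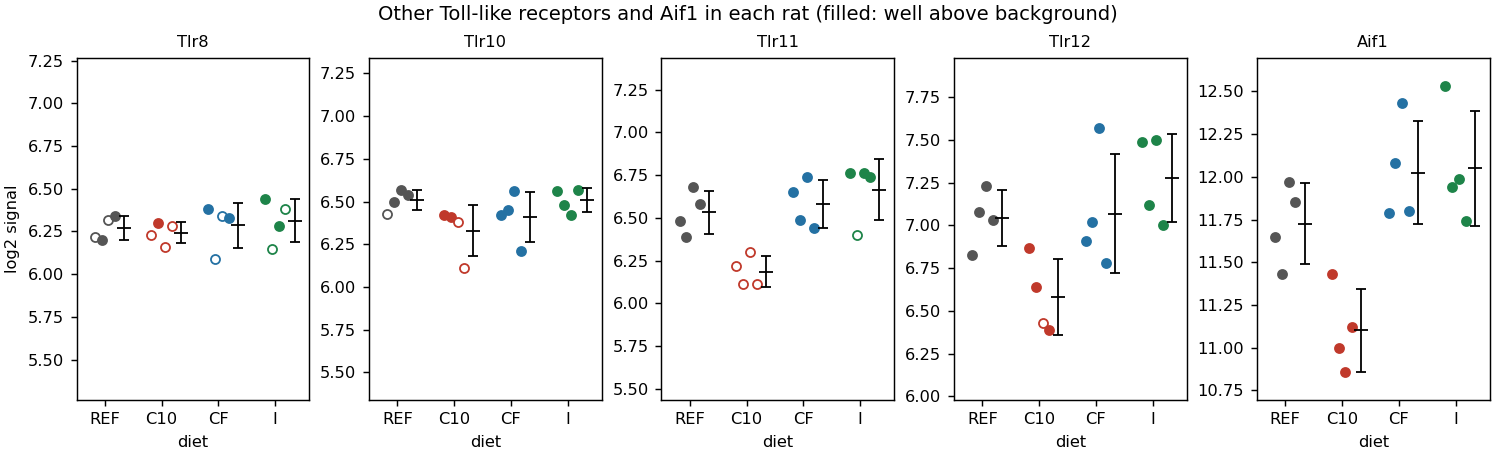
Normalized log2 signal of 4 other Toll-like receptors and of Aif1 in each rat, by diet. Points are rats, filled where well above background, and bars give mean and SD of 4 rats. The 4 C10 rats are the lowest of all for Tlr11, with open points only, and no C10 rat reaches the CF or I rats for Aif1.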

How the data were processed

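RNA from the colon of 16 rats was hybridised in pairs to 8 two-colour Agilent arrays (62976 spots, 30367 probes). The authors deposited the scanner output of Agilent Feature Extraction 10.7.3.1, which gives raw spot and local background intensity in each dye. A whole-series table of normalized values was not used here, since its 8 columns matched no label. Other deposited columns used hold probe names, flags for signal well above background, outliers and saturation, and the software's processed signals, an alternative here.

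Following the steps that the study's methods name, limma 3.58.1 (R 4.3.3) was applied to median intensities (normexp with an offset of 50, spatial loess with span 0.4, intensity loess with span 0.3, Aquantile). The offset and spans were chosen here. Log2 signals of each dye were averaged over the spots of a probe, and each gene was taken by its brightest probe. Only probes flagged above background in 4 or more of the 16 rats were kept, which left 22537 probes and 19899 genes, 11921 of them with a symbol from RefSeq. Diet and dye were fixed terms and the array a random block (correlation 0.419), with Benjamini-Hochberg adjustment over all genes. Exact permutation tests are two-sided, and correlations used 100000 permutations. The permutations for correlations shuffled rats regardless of array and dye, so their p-values are approximate. The study tested with rank product, an alternative here. The methods describe dye swaps of each sample, but the labels give each rat 1 array. The members, marker and pathway lists and tests were chosen with earlier results of these data known. Named genes were all members, pathway genes with an adjusted p below 0.05 or among the 3 smallest p against REF, and the 3 genes most like each member, of which 1 for Tlr5 is not reported here. The fits were tested on simulated data. The number of rats limits the precision. Alternatives were the background correction, normalization, filter, probe choice, model terms, covariates, rank product and leaving out each rat, and figures were drawn with matplotlib in Python.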

Additional observations from a re-analysis of the deposited data

Results flagged for a closer look

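In 2 of 32 groups of 4 rats (8 members, 4 diets), 1 rat stood apart from the others of its diet by more than Dixon's limit for 4 samples, and chance gives about 1 in 20. Tlr2 was at 9.36 in CF rat 3 against 9.06 to 9.10 in the other CF rats. The same rat had the highest B cell score (1.44) of all 16. Cd14 was at 12.05 in I rat 2 against 12.36 to 12.41 in the other I rats. With the dye means removed it was at -0.34, and the other I rats at -0.24, -0.20 and -0.03, so that it no longer stood apart.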

How the results depend on the processing

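Under 31 other fits, 0 members were called in any of the 6 comparisons, among them 16 fits that left out 1 rat each (0 to 0 members), rank product, and C10 rats 1 and 4 left out together, a choice made after seeing the data. Of 1488 refitted differences, 13 moved by more than 1 SD between rats, for Tlr5, Tlr6 and Tlr7. In 116 the sign changed, 2 of them where the reported difference was at least 0.2. With the posterior Hox score as covariate, C10 against REF gave 0.23 for Tlr5 and 0.44 for Tlr6. Members above background in all 16 rats were 7 by the flag and 6 by the limit of 2.6 SD. The count of relations with marker lists, 6 as reported, was 3 without an offset and 2 without the 2 rats farthest from the median. With diet removed from both measures it was 18, which may be too high because the permutation p-values there are too small. Of these 3, 2 and 18, the shared ones were 3, 1 and 6. It was 5 with processed signals and 6 without normalization between arrays, 2 of them shared each time. The sign of the 6 held in these 5 settings. The cause was not tested. Of 30 settings, the Tlr11 call was lost in 20 against CF and in 14 against I, among them, for both, log-ratios within arrays, array position, only the 2 diets compared, the posterior Hox covariate and rank product, and for CF also quantile normalization and no dye term. Tlr11 passed for C10 against REF without an offset (-0.88, limma's adjusted p = 0.0274), with processed signals (-1.68, 0.000593) and with the B cell score as covariate (-0.36, 0.0256). With that covariate Il1b, Tlr11 and Tlr12 passed for C10 against REF, CF and I, and without REF replicate 3 Sigirr passed for C10 against REF. By rank product Il1b and Ccl20 passed for C10 against I. Without C10 replicate 1, Il1b passed for C10 against CF, and Il1b and Tlr12 passed for C10 against I. Without CF replicate 3, Tlr12 passed for C10 against I. No paired analysis was possible because replicate numbers only name rats, other than by array: rats that shared an array were paired by the array block, and by log-ratios within arrays. Dim probes (Tlr5, Tlr7, Tlr8, Tlr9, Tlr10, Tlr11) are limited by their signal over background.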
